A study of Homo sapiens with 26 samples.

Results

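CEACAM1, CEACAM5, CEACAM6 and CEACAM7 are the members of the carcinoembryonic antigen-related cell adhesion molecule (CEACAM) family followed here in LoVo, an established human colorectal cancer cell line. They were taken by gene symbol from both deposited tables, which list 18165 and 17734 genes, and each of the 4 symbols was found once in each table. Poly(A)-selected RNA was sequenced in 26 libraries that form 13 groups of 2. The first table holds 18 libraries in 9 groups: wild-type (WT) LoVo and its PIK3CA E545K and PIK3CA H1047R derivatives, each in the vehicle DMSO, in 0.5 µM palbociclib (an inhibitor of the cyclin-dependent kinases CDK4 and CDK6), or in medium conditioned by senescent cells (CM). The second table holds 8 libraries in 4 groups, E545K and H1047R under palbociclib and under 0.5 µM palbociclib with 4 µM erlotinib, an inhibitor of the EGF receptor, and it has no wild-type and no DMSO group. PIK3CA encodes the catalytic subunit p110α of phosphoinositide 3-kinase. The mutant lines were made with lentiviral vectors in the same wild-type line, so all 13 groups share the LoVo background. Whether the endogenous gene is intact in the mutants is not stated in the sources used here. Palbociclib and DMSO were given for 72 h and the combination for 48 h. The protocol also mentions control cells taken at 48 h without saying which libraries these are, and the sources used here do not state how long cells were kept in CM, which cells the medium came from, or how long the second table's palbociclib groups were treated. A clone is named for the palbociclib experiment only, 1 per mutation, so clone and mutation cannot be told apart. Nothing in the labels says that the 2 libraries of a group came from separate cultures, and p-values then measure only the spread between these libraries.

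CEACAM proteins are immunoglobulin-like surface glycoproteins that bind one another between neighbouring cells, and several serve as docking sites for bacteria at mucosal surfaces. CEACAM5 is carcinoembryonic antigen (CEA), the serum marker used to follow colorectal cancer. CEACAM5, CEACAM6 and CEACAM7 are held in the outer membrane by a glycosylphosphatidylinositol (GPI) anchor, while CEACAM1 spans the membrane and, in its long-tailed form, carries inhibitory tyrosine motifs that recruit the phosphatases PTPN6 and PTPN11. In normal colon, CEACAM5 and CEACAM7 mark mature surface epithelium, and CEACAM6 is often raised in colorectal tumours.

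All 4 genes lie on the long arm of chromosome 19, with positions here from RefSeq on GRCh38.p14. CEACAM7 spans 41673303 to 41688270 on the minus strand, CEACAM5 spans 41708626 to 41730519 on the plus strand and CEACAM6 spans 41755530 to 41772211 on the plus strand. CEACAM1 lies apart at 42507306 to 42528481 on the minus strand. The 250 bases upstream of each RefSeq start site, whose first to last base is given in the strand of the gene, are printed because CEACAM5, CEACAM6 and CEACAM7 were all higher under palbociclib in the first table and share part of this sequence. Capitals mark matches to the motifs described next.

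CEACAM5 (chr19:41708376-41708625, plus strand): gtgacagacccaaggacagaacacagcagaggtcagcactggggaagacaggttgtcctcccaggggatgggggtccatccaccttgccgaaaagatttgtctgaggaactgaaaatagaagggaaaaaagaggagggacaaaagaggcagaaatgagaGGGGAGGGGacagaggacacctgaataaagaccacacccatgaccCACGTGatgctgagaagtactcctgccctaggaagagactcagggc
CEACAM6 (chr19:41755280-41755529, plus strand): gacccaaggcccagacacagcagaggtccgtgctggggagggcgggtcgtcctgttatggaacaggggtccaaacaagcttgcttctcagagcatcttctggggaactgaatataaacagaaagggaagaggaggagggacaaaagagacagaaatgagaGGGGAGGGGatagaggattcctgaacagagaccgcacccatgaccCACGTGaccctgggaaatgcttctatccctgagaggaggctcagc
CEACAM7 (chr19:41688271-41688520, minus strand): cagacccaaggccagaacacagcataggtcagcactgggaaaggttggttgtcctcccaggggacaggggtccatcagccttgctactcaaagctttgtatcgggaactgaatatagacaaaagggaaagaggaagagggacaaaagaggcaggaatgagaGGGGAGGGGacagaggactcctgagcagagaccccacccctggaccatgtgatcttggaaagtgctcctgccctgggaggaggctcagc
CEACAM1 (chr19:42528482-42528731, minus strand): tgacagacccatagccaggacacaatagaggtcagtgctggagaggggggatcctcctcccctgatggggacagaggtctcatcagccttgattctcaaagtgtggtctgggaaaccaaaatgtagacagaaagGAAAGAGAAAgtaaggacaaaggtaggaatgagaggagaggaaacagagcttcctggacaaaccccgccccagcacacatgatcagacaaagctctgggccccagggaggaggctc

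These upstream stretches were 76.3% to 84.4% identical between pairs of the 4 genes over aligned bases. The motifs were chosen after the sequences had been read, both strands were searched, and no motif overlapped another in these windows. CACGTG, the E-box form bound by USF and MYC family factors, occurred in CEACAM5 at -46 to -41 and in CEACAM6 at -45 to -40 from the start site, and in neither of the others. The purine-rich box GGGGAGGGG began at -91 in CEACAM5, at -90 in CEACAM6 and at -89 in CEACAM7, and was not found in CEACAM1. A pair of GAAA blocks separated by any 2 bases, the letters that interferon regulatory factors recognise, occurred in CEACAM1 alone of the 4, at -116 to -107. A kB-like motif was also searched and had no match in the 4 windows. Among 27305 RefSeq promoter windows of the same length, 6.49% held CACGTG, 6.84% GGGGAGGGG, 3.07% the GAAA pair and 1.73% the kB-like motif. A match is a description of letters, and the tables hold no measure of factor binding.

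**Figure D1:**
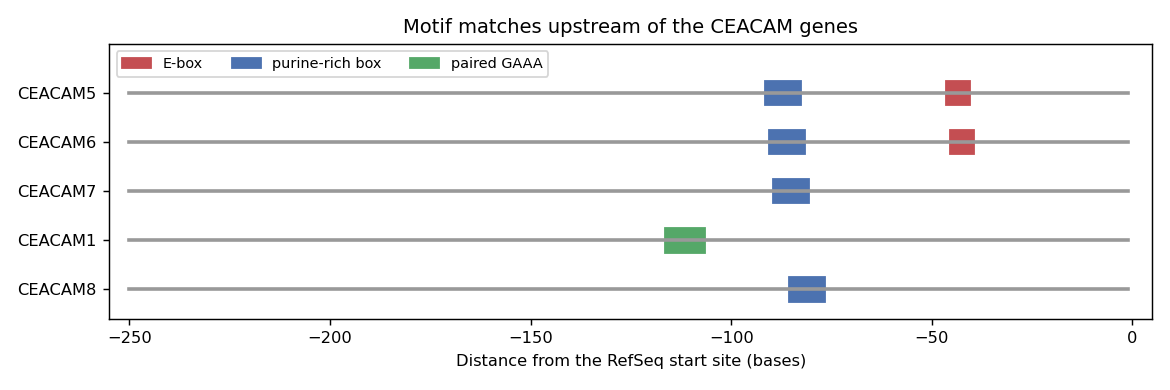
Matches to 3 motifs (coloured boxes) in the 250 bases upstream of the 4 genes and of CEACAM8, by distance from the RefSeq start site in bases. The purine-rich box sits between -91 and -77 in CEACAM5, CEACAM6, CEACAM7 and CEACAM8, the E-box in CEACAM5 and CEACAM6, and the GAAA pair in CEACAM1.

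Levels are in FPKM, a fragment count scaled by transcript length and by the mapped fragments of the library, so they are scaled by gene length and can be set side by side between genes. Across libraries of the first table the deposited FPKM summed to 446862 to 524290, and 11453 to 12079 genes reached 1 FPKM. The second table gave sums of 441643 to 464405 and 12006 to 12157 genes. Read depth is unknown. Changes are differences of log2(FPKM + 1) from which the median difference of all genes tested was subtracted, because that median itself moved by 0.25 in E545K and 0.26 in H1047R against wild type, by 0.14 under palbociclib and 0.29 in CM in wild type. The adding of 1 FPKM understates the change of low genes, CEACAM7 above all. Tests were limma's moderated test with Benjamini-Hochberg adjustment over all 12607 genes of the first table or 12463 of the second, on the change before this subtraction, and a gene was called at an adjusted p under 0.05. The libraries were epithelial by their markers, all 8 of which were detected, and their summed level was 7028 to 16690 FPKM in the first table, while leukocyte markers summed to 1.39 to 4.51 FPKM, endothelial markers to at most 0.52 FPKM and fibroblast markers to 2.06 to 20.82 FPKM. Fewer cells of a kind and less RNA per cell cannot be told apart in such bulk samples. PIK3CA itself was at 5.38 and 5.42 FPKM in wild type, 8.20 and 7.37 in E545K and 6.36 and 7.19 in H1047R in DMSO, a total that does not separate mutant from wild-type transcript.

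In DMSO, CEACAM1 was the most abundant of the 4 in every line, CEACAM5 came next, CEACAM6 was low and CEACAM7 was close to 0. Wild-type libraries held 47.72 and 50.06 FPKM of CEACAM1, 13.27 and 13.19 of CEACAM5, 2.48 and 2.57 of CEACAM6 and 0.23 and 0.38 of CEACAM7. CEACAM1 thus made up 75.3% ± 0.50 (SD, n = 2) of the summed FPKM of the 4 genes in wild type. The share was 75.2% ± 2.3 (SD, n = 2) in H1047R and 54.8% ± 0.26 (SD, n = 2) in E545K. All 4 genes passed the filter of 1 FPKM in 2 libraries in the first table. CEACAM7 reached 1 FPKM only in the 6 palbociclib libraries and in 1 of 2 E545K DMSO libraries, so it entered the tests through the groups where it was high. In the second table it reached 1 FPKM in the 4 H1047R libraries alone.

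Against wild type in DMSO, E545K had less CEACAM1 and more of the 3 GPI-anchored members. Its CEACAM1 stood at 36.81 and 29.56 FPKM, below both wild-type libraries, and the change was -0.81 (SE 0.14, adjusted p = 0.00281, limma). Among all genes tested, 10.4% were called lower in this comparison. The 3 others were called higher, where 48.4% of all genes were. CEACAM5 was at 23.61 and 18.00 FPKM, a change of 0.35 (SE 0.11, adjusted p = 0.000289). CEACAM6 was at 5.40 and 5.73 FPKM, which is 2.20 times the wild-type mean and a change of 0.64 (SE 0.10, adjusted p = 3.34e-06). CEACAM7 was at 1.13 and 0.84 FPKM, a change of 0.35 (adjusted p = 0.000806). This test rests on the palbociclib libraries, through which CEACAM7 passed the filter. With only the groups compared it fell below the filter and was not tested, leaving 3 members called. No E545K library overlapped wild type for any of the 4 genes. The share of all genes that separate in this way was not computed, so this does not set the members apart.

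H1047R differed from wild type in the other direction for CEACAM5 and CEACAM6. CEACAM6 was at 1.21 and 1.22 FPKM, 0.481 times the wild-type mean, a change of -0.93 (SE 0.099, adjusted p = 3.04e-05). CEACAM5 was at 10.73 and 10.89 FPKM, below both wild-type libraries, with a change of -0.53 (adjusted p = 0.0421). CEACAM1 was at 40.37 and 34.64 FPKM, a change of -0.64 (adjusted p = 0.0233). These were 3 of 4 members called lower, where 17.5% of all genes were. CEACAM7 was at 0.26 and 0.34 FPKM, within the wild-type range (change -0.26, adjusted p = 0.981), and was called lower with median-centring (adjusted p = 0.012). Leaving out either wild-type DMSO library ended the calls of CEACAM1 and CEACAM5, and so did leaving out the second H1047R library. The call of CEACAM5 was also lost without the first H1047R library and without the filter on low values. Both mutant comparisons use the same wild-type DMSO libraries, whose profile correlated across 12607 genes at 0.938 with wild type in CM, while wild type in CM correlated at 0.986 with H1047R in DMSO.

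**Figure D2:**
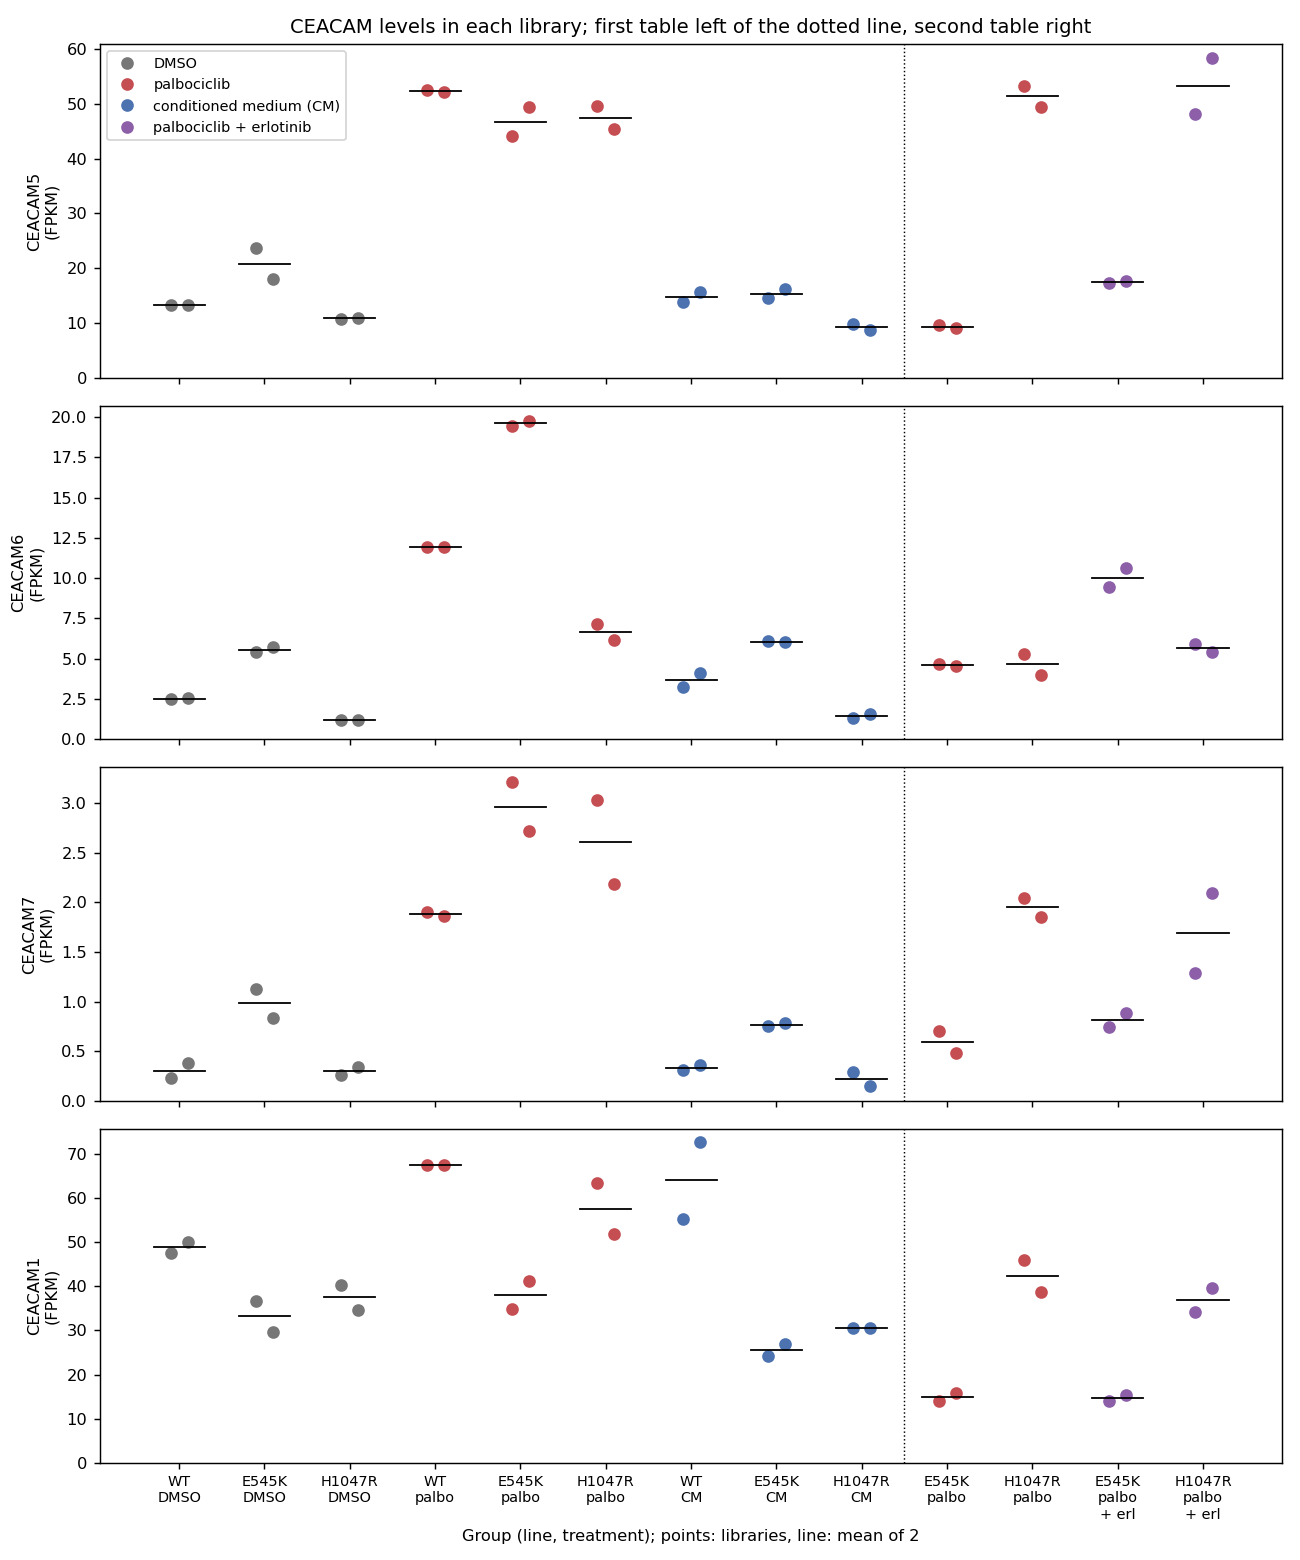
FPKM of each gene in each library (points) and the mean of 2 libraries (line) over the 13 groups, with the first table left of the dotted line and the second right of it. For CEACAM5, CEACAM6 and CEACAM7 the palbociclib libraries of the first table stand above the DMSO and CM libraries of their line. The share of all genes that separate in this way was not computed. CEACAM5 in E545K under palbociclib is at 44.06 and 49.47 FPKM on the left and at 9.66 and 8.99 on the right.

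Palbociclib raised CEACAM5, CEACAM6 and CEACAM7 in all 3 lines, and CEACAM1 was called in wild type and H1047R. CEACAM5 reached 52.50 and 52.09 FPKM in wild type, 44.06 and 49.47 in E545K and 49.64 and 45.33 in H1047R. The 6 libraries lay between 44.06 and 52.50 FPKM, while the DMSO means of the lines ran from 10.8 to 20.8 FPKM. These are 3.95, 2.25 and 4.39 times the DMSO means. The changes were 1.77 (SE 0.11, adjusted p = 5.80e-08) in wild type, 1.06 (adjusted p = 1.12e-06) in E545K and 2.06 (adjusted p = 9.08e-09) in H1047R. By change, CEACAM5 ranked 5, 281 and 26 from the top of 12607 genes in these lines, in the same order.

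CEACAM6 rose in each line and kept the order of the lines. It was at 11.92 and 11.94 FPKM in wild type, 19.45 and 19.78 in E545K and 7.18 and 6.17 in H1047R. Those levels are 4.72, 3.52 and 5.49 times the DMSO means. As in DMSO, E545K was highest and H1047R lowest, with no overlap between lines. The share of all genes without such overlap was not computed. The changes were 1.74 (SE 0.099, adjusted p = 2.42e-08), 1.57 (adjusted p = 1.07e-08) and 1.82 (adjusted p = 1.07e-08). CEACAM7 stayed the scarcest, at 1.90 and 1.86 FPKM in wild type, 3.21 and 2.72 in E545K and 3.03 and 2.19 in H1047R. Its mean was 6.16, 3.01 and 8.70 times that in DMSO, ratios that rest on DMSO levels under 1.2 FPKM. On the log2(FPKM + 1) scale the changes were 1.01 (adjusted p = 1.40e-05), 0.92 (adjusted p = 1.24e-05) and 1.49 (adjusted p = 8.46e-07).

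CEACAM1, the transmembrane member, was at 67.60 and 67.65 FPKM under palbociclib in wild type, at 34.95 and 41.29 in E545K and at 63.49 and 51.85 in H1047R. In H1047R both libraries lay above the DMSO and CM libraries, a separation whose share over all genes was not computed. The change there was 0.63 (SE 0.14, adjusted p = 0.00314, limma). In wild type the change was 0.32 (adjusted p = 0.0171), and in E545K, where the libraries overlapped DMSO, 0.12 (adjusted p = 0.238). Called higher were thus all 4 members in wild type and in H1047R, where 27.2% and 19.5% of all genes were, and 3 members in E545K, where 32.9% were. CEACAM7 passed the filter through the palbociclib libraries, so its part in these counts is not independent of the group called higher. The wild-type CEACAM1 call was lost on leaving out any 1 of the 4 wild-type libraries and on median-centring, and the H1047R call when only the groups compared were fitted (adjusted p = 0.0721).

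Because the wild-type DMSO libraries stand apart from wild type in CM, the palbociclib libraries were also set against the CM libraries of the same line, a comparison chosen after the values had been seen. For wild type, E545K and H1047R, CEACAM5 was then higher by 1.76, 1.55 and 2.23, here without subtraction of the median. CEACAM6 was higher by 1.48, 1.55 and 1.66, and CEACAM7 by 1.11, 1.16 and 1.56, with adjusted p at most 1.2e-05 (limma). CEACAM1 differed by 0.09 in wild type (adjusted p = 0.585), by 0.56 in E545K (adjusted p = 0.00913) and by 0.89 in H1047R (adjusted p = 0.000204). With CM as the reference the wild-type call of CEACAM1 was therefore lost and the E545K call gained.

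The rise of CEACAM5 was smaller in E545K than in wild type, by 0.72 (interaction -0.72, SE 0.16, adjusted p = 0.00269, limma), and 14.7% of all genes had such a lower response. CEACAM5 was higher in E545K than in the other lines in DMSO, as given above. For CEACAM1, CEACAM6 and CEACAM7 the difference in response between E545K and wild type was -0.22, -0.18 and -0.10, with adjusted p of 0.351, 0.269 and 0.598. Between H1047R and wild type no member was called by limma (0 of 4, also 0 at an unadjusted p under 0.05, against 22.6% of all genes in either direction), with differences of 0.31 for CEACAM1, 0.30 for CEACAM5, 0.08 for CEACAM6 and 0.49 for CEACAM7 and adjusted p from 0.195 to 0.676. These comparisons use the wild-type libraries in common.

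**Figure D3:**
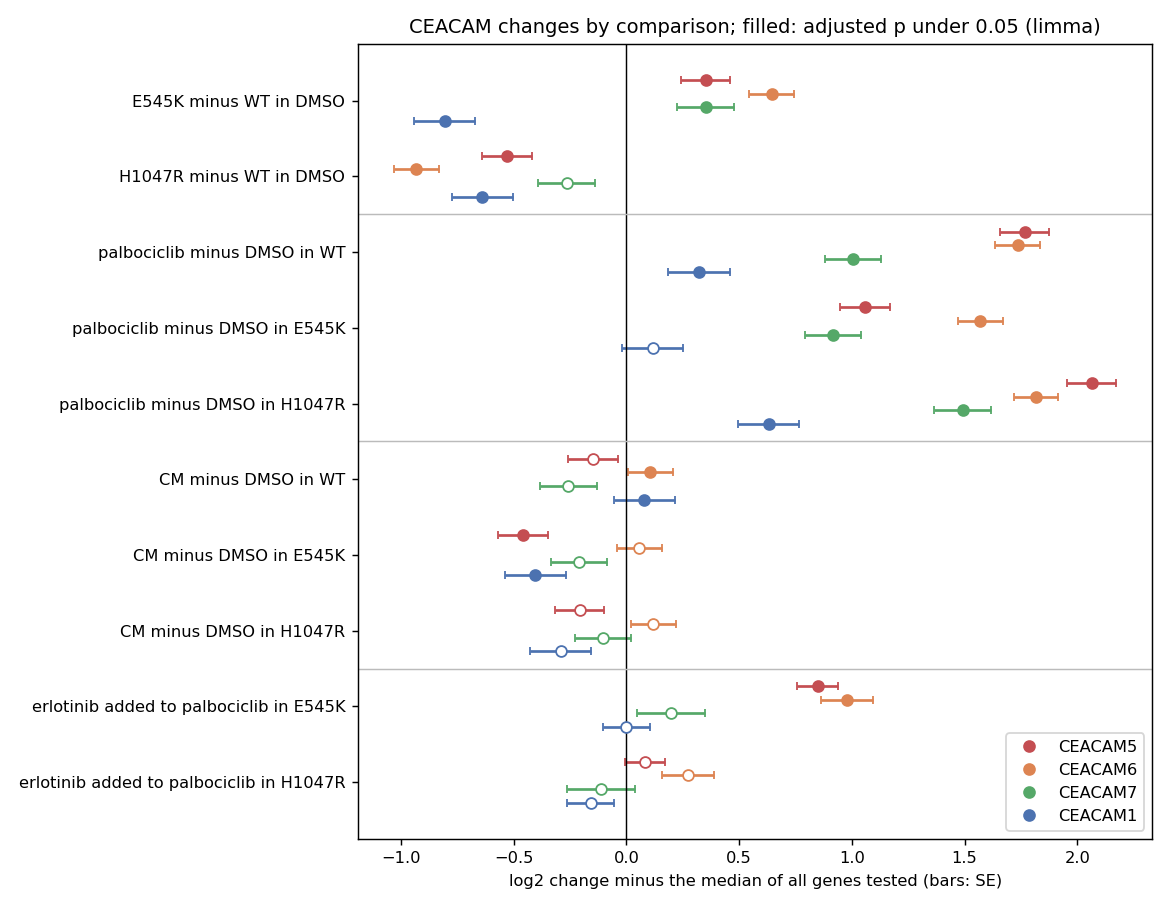
Change in log2(FPKM + 1) minus the median of all genes tested, with its SE, for the 4 genes in 10 comparisons, where filled points have an adjusted p under 0.05 (limma). Under palbociclib the 3 GPI-anchored members lie between 0.92 and 2.06 in all 3 lines and CEACAM1 between 0.12 and 0.63, and added erlotinib moves CEACAM5 and CEACAM6 in E545K by 0.85 and 0.98.

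The make-up of CEACAM transcripts differed between DMSO and palbociclib. CEACAM1 was 50.6% ± 0.13 (SD, n = 2) of the summed FPKM under palbociclib in wild type, 50.3% ± 1.7 in H1047R and 35.4% ± 1.5 in E545K, each below the DMSO share given above. CEACAM5 accounted for 39.1%, 41.6% and 43.5% under palbociclib in wild type, H1047R and E545K. CEACAM6 took 18.3% ± 1.2 (SD, n = 2) in E545K under palbociclib, its highest share in the first table, and 2.45% ± 0.20 in H1047R in DMSO, its lowest. In CM the shares of CEACAM1 were 77.2%, 73.6% and 53.6% in wild type, H1047R and E545K, beside 75.3%, 75.2% and 54.8% in DMSO. The shares were not tested.

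**Figure D4:**
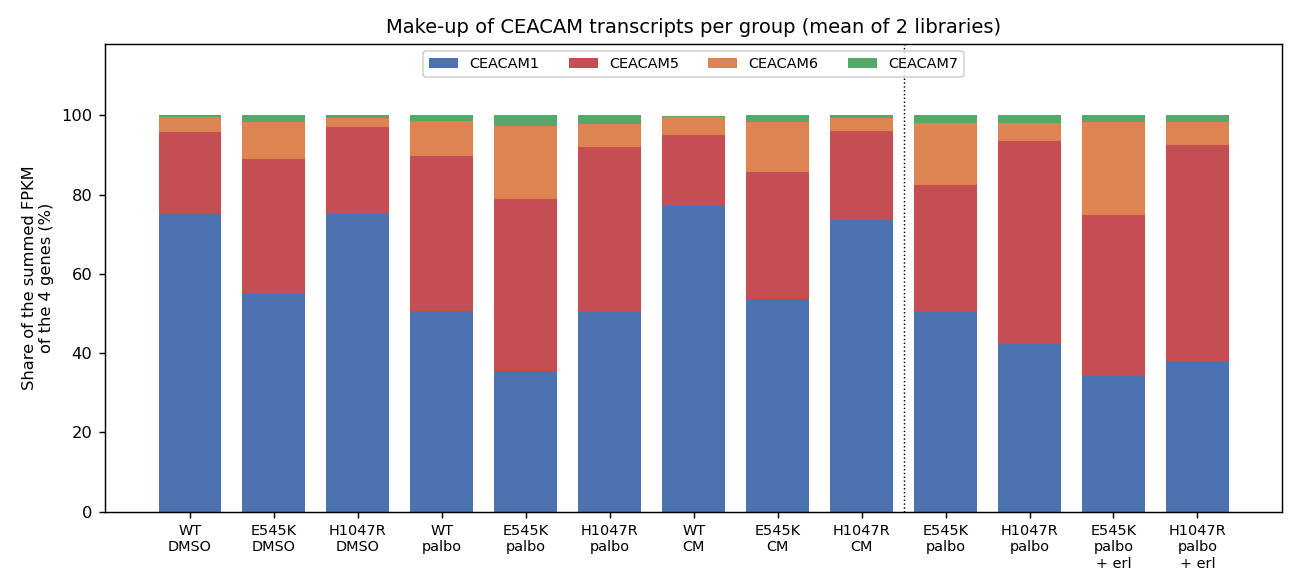
Share of each gene in the summed FPKM of the 4 genes, in percent, as the mean of 2 libraries per group. CEACAM1 makes up 75.3% in wild type in DMSO and 50.6% under palbociclib, and in E545K 54.8% and 35.4%.

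Against DMSO, CM gave calls for 2 members each in wild type and E545K and for 0 in H1047R. In wild type CEACAM1 was at 55.31 and 72.87 FPKM and CEACAM6 at 3.23 and 4.10, above DMSO in both libraries, and both were called higher (adjusted p = 0.024 and 0.00234), where 51.9% of all genes were. Relative to the median of all genes these changes were 0.08 (SE 0.14) and 0.11 (SE 0.099), beside a median change of all genes of 0.29, and quantile normalization or median-centring ended both calls. That of CEACAM1 was also lost without either wild-type DMSO library or the second wild-type CM library, and median-centring called CEACAM7 lower (-0.31, adjusted p = 0.0232). CEACAM5 in wild-type CM was at 13.80 and 15.73 FPKM (adjusted p = 0.25) and CEACAM7 at 0.31 and 0.36 (adjusted p = 0.814). In E545K, CM lowered CEACAM5 to 14.49 and 16.11 FPKM, a change of -0.46 (adjusted p = 0.00532), and CEACAM1 to 24.21 and 26.95, a change of -0.40 (adjusted p = 0.0356), where 24.9% of all genes were called lower. Leaving out the first E545K DMSO library or the first E545K CM library ended both of these calls, and leaving out the second CM library or testing without the filter ended that of CEACAM1. E545K in CM held 6.08 and 6.04 FPKM of CEACAM6 (adjusted p = 0.383) and 0.75 and 0.79 of CEACAM7 (adjusted p = 0.286). With median-centring CEACAM7 was called lower there (limma, adjusted p = 0.041). In H1047R no member was called by limma, also at an unadjusted p under 0.05, against 14.6% of all genes in either direction. There CEACAM1 was at 30.67 and 30.52 FPKM, CEACAM5 at 9.89 and 8.73, CEACAM6 at 1.3 and 1.55 and CEACAM7 at 0.29 and 0.15, with adjusted p from 0.189 to 0.669. Fibroblast markers were highest in wild-type CM (18.69 and 20.82 FPKM summed) and lowest in E545K CM (2.06 and 2.45), and their part in these values was not tested.

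The CM response of CEACAM1 was lower in both mutants than in wild type, by 0.50 in E545K (adjusted p = 0.00615) and by 0.38 in H1047R (adjusted p = 0.0109), and that of CEACAM5 was lower by 0.33 in E545K (adjusted p = 0.00903). Of all genes, 37.1% and 40.5% had a lower response in E545K and H1047R. Median-centring or leaving out the second wild-type CM library ended the H1047R call, and quantile normalization, median-centring or leaving out the first E545K DMSO library ended that of CEACAM5.

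In the order of levels over the 9 groups of the first table, the 3 palbociclib groups stood at the top for CEACAM5, CEACAM6 and CEACAM7. For CEACAM5 they were followed by E545K in DMSO and, at the bottom, H1047R in CM at 9.31 FPKM, and only H1047R and E545K under palbociclib, and E545K and wild type in CM, overlapped with their neighbour. CEACAM6 had 9 groups of which no neighbours overlapped, from 1.22 FPKM in H1047R in DMSO to 19.6 in E545K under palbociclib. How often neighbouring groups overlap over all genes was not computed. For CEACAM7, E545K and H1047R under palbociclib overlapped at the top, and the 4 groups below E545K in CM overlapped each with the next. For CEACAM1 the 4 highest groups were wild type under palbociclib, wild type in CM, H1047R under palbociclib and wild type in DMSO. Wild type in CM overlapped both wild type and H1047R under palbociclib, and H1047R under palbociclib did not overlap wild type in DMSO. E545K in CM was lowest at 25.6 FPKM.

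In the second table erlotinib added to palbociclib raised CEACAM5 and CEACAM6 in E545K. CEACAM5 was at 9.66 and 8.99 FPKM under palbociclib and at 17.36 and 17.69 with erlotinib, 1.88 times the mean and a change of 0.85 (SE 0.090, adjusted p = 0.00105). CEACAM6 was at 4.67 and 4.54 and at 9.42 and 10.66 FPKM, 2.18 times and a change of 0.98 (SE 0.11, adjusted p = 0.00159). These 2 members were called higher where 7.10% of all genes were, and they ranked 40 and 24 from the top of 12463 genes. CEACAM1 was at 13.93 and 15.71 against 14.07 and 15.45 FPKM (adjusted p = 0.982), and CEACAM7 at 0.70 and 0.48 against 0.74 and 0.89 FPKM (adjusted p = 0.431). Since the treatment time of the palbociclib groups in this table is not stated, added erlotinib and a difference in hours cannot be told apart. Fibroblast markers summed to 5.58 and 9.49 FPKM in E545K under palbociclib and to 1.26 and 1.37 with erlotinib, the 1 of them tested was called lower, and 4 of 8 epithelial markers were called lower. Their part in the result was not tested.

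In H1047R no member was called by limma on adding erlotinib, also at an unadjusted p under 0.05, against 9.36% of all genes in either direction. CEACAM5 was at 53.31 and 49.40 FPKM under palbociclib and 48.18 and 58.46 with erlotinib (adjusted p = 0.765). CEACAM6 was at 5.32 and 4.02 and at 5.91 and 5.40 FPKM, CEACAM1 at 45.93 and 38.85 and at 34.17 and 39.69, and CEACAM7 at 2.05 and 1.85 and at 1.29 and 2.1. The CEACAM6 value depended on single libraries. Before subtraction of the median its change was 0.24 with all libraries, 0.406 without the first H1047R palbociclib library and 0.0735 without the second. The response of CEACAM5 was lower in H1047R than in E545K by 0.76 (SE 0.13, adjusted p = 0.0212), where 1.27% of all genes were called so, and that of CEACAM6 by 0.70 (adjusted p = 0.0626). The CEACAM5 call was lost without any 1 of the 4 E545K libraries or the first H1047R combination library, and without the filter.

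H1047R and E545K were also compared with each other under palbociclib within each table, a comparison added after the values had been seen. In the second table H1047R exceeded E545K by 2.38 for CEACAM5 (adjusted p = 5.69e-07, limma, 5.51 times the mean) and by 1.50 for CEACAM1 (adjusted p = 1.52e-05). CEACAM7 was higher by 0.94 (adjusted p = 0.00139). Of all genes, 21.5% were called higher. CEACAM7 passed the filter in this table only through the H1047R libraries, so its call is not independent of the group called higher. CEACAM6 was not called, at 0.05 (adjusted p = 0.964). Of 8 epithelial markers 1 was called higher and 7 lower in H1047R, and of 13 markers of colonocyte differentiation 4 and 9. The 1 fibroblast marker tested was called lower. Of all 12463 genes, 3755 were called lower. The part of these markers in the result was not tested. In the first table CEACAM5 differed by 0.12 (adjusted p = 0.903), CEACAM7 by -0.04 (adjusted p = 0.441), CEACAM1 was higher in H1047R by 0.68 (adjusted p = 0.0105, 4.75% of genes higher) and CEACAM6 lower by 1.33 (change -1.33, adjusted p = 1.55e-07, 11.5% of genes lower). That CEACAM1 call was lost without the first E545K palbociclib library (adjusted p = 0.118) and when only the groups compared were fitted (adjusted p = 0.065).

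In E545K under palbociclib all 4 members were lower in the second table than in the first. The tables were normalized separately, so this is a description with no test. From the first to the second table CEACAM5 in E545K was lower by 2.18 relative to the median of all genes (change -2.18), rank 7 from the lowest of 12605 genes, and 0.0714% of genes lay as far from the median. CEACAM6 was at -1.85 (rank 15), CEACAM7 at -1.29 (rank 54) and CEACAM1 at -1.28 (rank 56). In H1047R the 4 members differed by between -0.47 and 0.08. The whole profiles of the tables correlated across genes at 0.985 in E545K and 0.968 in H1047R. The second-table E545K palbociclib level of CEACAM5, at 9.66 and 8.99 FPKM, lies below the 23.61 and 18.00 of E545K in DMSO in the first table. Clone, hours and run of the second table cannot be told apart here.

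Of the other family members in a list of 18 CEACAM and pregnancy-specific glycoprotein (PSG) genes, 13 were present in one table and 11 in the other, and only CEACAM8 and CEACAM19 passed the filter. The rest were at most 0.21 FPKM. CEACAM8, a GPI-anchored member best known on granulocytes, moved against the others. It was at 8.62 and 8.92 FPKM in wild type in DMSO and at 3.55 and 4.61 under palbociclib, a change of -1.09 (adjusted p = 0.00174). In E545K it went from 4.58 and 3.81 to 1.34 and 1.56 FPKM (-1.16, adjusted p = 0.000272) and in H1047R from 3.88 and 6.38 to 2.03 and 1.05 (-1.24, adjusted p = 0.000172). CEACAM8 carries the purine-rich box upstream at -85 to -77 as the 3 risers do, and no E-box. CEACAM19 changed by 0.61 in E545K (adjusted p = 0.000341) and was not called in wild type or H1047R (adjusted p = 0.684 and 0.0673).

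Genes around the 4 members were called in both directions. Within 250 kb of a member 27 other genes were measured and 15 tested. Under palbociclib 3 were called higher and 2 lower in wild type, 2 and 4 in E545K, and 3 and 2 in H1047R. CEACAM8 had the lowest change of the 15 in each line. Among 22 family genes of the GENCODE annotation, the members included, transcripts of each member share few exact stretches with the other genes. Shared were 2.75% of 50-base windows in CEACAM1, 3.07% in CEACAM5, 4.03% in CEACAM6 and none in CEACAM7, and no 100-base window in any. How reads matching several genes were counted is not stated.

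The genes whose levels ran most like a member over the 18 libraries of the first table are given as a description, since these libraries fall into palbociclib and other groups. All 8 libraries of the second table had palbociclib. There CEACAM1, CEACAM5 and CEACAM7 were higher in every H1047R library than in every E545K library, a separation whose share over all genes was not computed. The second r thus describes a different contrast and does not repeat the first. For CEACAM5 they were the keratin KRT17 (Pearson r = 0.931 and 0.935 over the 8 libraries of the second table), the NKG2D ligand RAET1L (0.922 and 0.981) and the interferon-induced exonuclease ISG20 (0.907 and 0.979). CEACAM7 ran with CEACAM5 itself (0.955 and 0.951), the annexin ANXA3 (0.940 and 0.868) and ISG20 (0.918 and 0.927). CEACAM6 had ANXA3 (0.926), the neuromedin precursor NMB (0.905) and GCC1 (0.891), which were at 0.0024, 0.19 and 0.02 in the second table. CEACAM1 had CPE (0.856 and -0.870), EMP3 (0.842 and 0.971) and MLLT3 (0.839 and 0.904). Between members, r was 0.883 for CEACAM5 with CEACAM6 and -0.168 in the second table, 0.884 and -0.283 for CEACAM6 with CEACAM7, 0.480 and 0.943 for CEACAM1 with CEACAM5, and 0.260 and 0.944 for CEACAM1 with CEACAM7. Candidates were 9942 genes with at least 5 FPKM in at least 2 libraries, or 9943 for CEACAM7. CEACAM7 was too low to be a candidate, so it is not named for CEACAM5 although their r of 0.955 is above that of KRT17. By Spearman's rho, 2 of the 3 were the same for CEACAM1 and CEACAM6, 1 for CEACAM7 and 0 for CEACAM5.

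Lists of related genes put the members in context by counts, beside which stand the shares of all genes called higher under palbociclib, given above as 27.2%, 32.9% and 19.5%. Called lower were 6.77%, 19.3% and 19.8%. Of 20 tested genes that respond to interferon-gamma or IRF1, 16 were higher under palbociclib in wild type, 18 in E545K (with 2 lower) and 17 in H1047R, with median changes of 0.48, 0.82 and 1.15. Among them CD74, the HLA class II chaperone, rose by 2.13, 3.21 and 4.19 (adjusted p at most 8.88e-08). Of 19 NF-kB targets, 4 were higher and 5 lower in wild type, 15 and 1 in E545K, and 15 and 0 in H1047R. The chemokine gene CCL20 rose by 4.29 in E545K and 2.17 in H1047R, and in wild type the value was 0.54 (adjusted p = 0.0511). IRF1 itself, a transcription factor in the list of 21 tested epithelial and interferon factors, rose by 0.36, 0.77 and 1.38, and of that list 4, 6 and 3 genes were higher and 2, 4 and 10 lower.

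Markers of colonocyte differentiation did not share one direction: of 13 tested, 6 were higher and 3 lower in wild type, 5 and 3 in E545K, and 4 and 6 in H1047R. GUCA2A, the guanylin precursor of surface colonocytes, rose by 1.21, 1.16 and 2.25 in wild type, E545K and H1047R, while LGALS4, an intestinal galectin, fell (-1.11, -0.48 and -1.07). PHGR1, an intestinal epithelial gene, rose by 1.14, 1.75 and 1.04. Of 30 genes that build or attach the GPI anchor, 17 were higher and 1 lower in wild type, 19 and 2 in E545K, and 7 and 5 in H1047R, and PIGQ, a subunit of the first enzyme of the pathway, rose by 1.00, 1.29 and 0.63. Other GPI-linked and surface antigens split, with 9, 8 and 11 of 25 higher and 3, 10 and 4 lower. Among these the folate receptor FOLR1 rose by 0.99, 1.20 and 1.56, and the placental-type alkaline phosphatase ALPG fell (-1.48, -4.09 and -2.80). Of 11 tested genes that act with the CEACAM1 tail, 2, 2 and 4 were higher and 1, 3 and 2 lower, and the phosphatase PTPN6 rose by 0.73, 0.22 and 0.37.

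On adding erlotinib in E545K, where CEACAM5 and CEACAM6 rose, 4 of 20 interferon-gamma genes were higher and 2 lower, 4 of 19 NF-kB targets higher and 5 lower, and 0 of 13 colonocyte markers higher and 6 lower. Of all genes, 7.10% were higher and 9.11% lower. CD74 fell (-0.32, adjusted p = 0.016) and PHGR1 fell (-0.87, adjusted p = 0.003). SMAD3, which carries TGF-beta signals, rose by 0.64 (adjusted p = 0.000552) and FOLR1 fell (-0.62, adjusted p = 0.0134). In CM against DMSO, 11 interferon-gamma genes were higher and 5 lower in wild type, 16 and 1 in E545K, and 6 and 0 in H1047R. For NF-kB targets the counts were 7 and 8, 13 and 3, and 6 and 2. Of all 12607 genes, 6537, 4090 and 1091 were higher in CM and 2346, 3133 and 753 lower. In E545K in CM, CEACAM1 and CEACAM5 were called lower, and CEACAM6 and CEACAM7 were not called.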

How the data were processed

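RNA-seq of LoVo cells was deposited by the authors as FPKM per gene, per the file headers, in 2 tables of 18 and 8 libraries. The submitters' processing notes name HISAT2 2.1.0, Bowtie2 2.3.4.3, RSEM 1.3.1, DESeq2 1.4.5 and GRCh38, without roles, and the annotation is not given in the sources used here. Libraries were grouped by their labels, 2 per group. Each table was analysed separately in R 4.3.3 with limma 3.58.1 (trended empirical Bayes) on log2(FPKM + 1), with 1 coefficient per group, so all groups of a table share one estimate of the spread. Genes with at least 1 FPKM in at least 2 libraries were tested, with Benjamini-Hochberg adjustment over all of them and a threshold of 0.05. There were 15 planned comparisons, of which 5 compare responses between lines, and 2 added after the values were seen. A change is printed minus the median of all genes, and the test is of the unsubtracted change. With 2 libraries per group the precision is limited by the spread between them. Low FPKM values were within 0.15 of a whole multiple of a smallest step in 55.3% and 56.3% of cases, so reads were not recovered and no count test was run. The limma script was tested on simulated data first. The 4 members and the gene lists were chosen with earlier results of these data known. The named genes are the members and, per list, up to 4 called genes with the largest mean absolute log2 change over the 3 palbociclib responses, plus the 3 genes most like each member by Pearson r among genes with at least 5 FPKM in at least 2 libraries. Promoters and positions are from RefSeq on GRCh38.p14 and were matched by symbol for the 4 members and CEACAM8, and identities were computed with Biopython 1.88. In the first table same-numbered libraries deviated together in some pairs of groups and in opposite ways in others (correlations of -0.56 to 0.55). The second table gave -0.1 to 0.026. The pairing was thus not consistent, and the replicate numbers were not used to pair samples.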

Additional observations from a re-analysis of the deposited data

Results flagged for a closer look

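5 differences in response between lines passed the test of the difference itself (limma, adjusted over all genes). The test was of the difference before subtraction of the median, while the values below are after it. For the CM response, the differences tested were -0.73 and -0.65 for CEACAM1 in E545K and H1047R and -0.55 for CEACAM5 in E545K. Median-centring ended the CM response calls of CEACAM1 in H1047R and of CEACAM5 in E545K. Of all genes, 14.7% had a lower palbociclib response in E545K than in wild type, 37.1% and 40.5% a lower CM response in E545K and H1047R, and 1.27% a lower erlotinib response in H1047R than in E545K, so the CM results (2 of 4 members in E545K, 1 of 4 in H1047R) do not set the members apart from other genes. The palbociclib response of CEACAM5 was lower in E545K than in wild type (-0.72, SE 0.16). The CM response of CEACAM1 was lower than in wild type in E545K (-0.50, SE 0.19) and in H1047R (-0.38, SE 0.19), and that of CEACAM5 was lower in E545K (-0.33, SE 0.16). The response of CEACAM5 to added erlotinib was lower in H1047R than in E545K (-0.76, SE 0.13). The first 4 share the wild-type libraries. In the last, CEACAM5 was already at 53.31 and 49.40 FPKM in H1047R under palbociclib alone and at 9.66 and 8.99 FPKM in E545K. What sets these differences was not tested.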

How the results depend on the processing

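Log2 changes in this section are before subtraction of the median. The calls of CEACAM5, CEACAM6 and CEACAM7 as higher under palbociclib in all 3 lines, of CEACAM5 and CEACAM6 with erlotinib in E545K, and of the smaller CEACAM5 response to palbociclib in E545K kept their direction and call under every alternative run. The alternatives were a pseudocount of 0.1, no filter on low values, quantile normalization, median-centring, a replicate block, fitting only the groups compared, leaving out each library, and, added later for palbociclib, CM libraries in place of DMSO libraries. The cause of the moves below was not tested.

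Members called moved from 2 to 1 for CM in E545K without the filter, and to 3 with median-centring, which added CEACAM7 as lower. For CM in wild type they moved from 2 to 0 with quantile normalization and to 1 with median-centring, where the 1 is CEACAM7 called lower and neither original call held. For the CM response of E545K against wild type they moved from 2 to 1 with either normalization. For that of H1047R they moved from 1 to 0 with median-centring and to 2 in the groups compared alone. For the palbociclib response of H1047R against wild type, median-centring gave 1 in place of 0 (CEACAM7). For E545K against wild type in DMSO the groups compared alone gave 3 in place of 4, since CEACAM7 fell below the filter there and was not tested. The erlotinib response had 0 in place of 1 without the filter, and H1047R against E545K under palbociclib in the first table had 1 in place of 2 in the groups compared alone, losing CEACAM1.

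All genes called in the palbociclib response of H1047R against wild type numbered 2845, with quantile normalization 1851 and with only the groups compared 323. With only the groups compared the counts were 582 for palbociclib in H1047R (4951 with all groups), 769 for CM in H1047R (1844), 3595 for erlotinib in E545K (2020), 158 for erlotinib in H1047R (1167) and 356 for H1047R against E545K under palbociclib in the first table (2053). Without the filter, erlotinib in H1047R gave 683 and the erlotinib response 107 (270 with it). CM in place of DMSO gave 7759 genes for palbociclib in wild type (4287) and 2540 in E545K (6579).

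Changes of sign, all but 1 in members not called, were as follows. The exception was CEACAM6 for CM in wild type, at -0.0767 with quantile normalization. With quantile normalization, CM in wild type gave -0.14 for CEACAM5 and -0.22 for CEACAM7, and CM in E545K -0.0115 for CEACAM6. Response differences under quantile normalization were 0.23 for CEACAM6 (palbociclib, H1047R against wild type), 0.0652 for CEACAM6 and 0.10 for CEACAM7 (CM, E545K), and 0.26 for CEACAM6 and 0.15 for CEACAM7 (CM, H1047R). CEACAM7 was at 0.0381 between H1047R and E545K under palbociclib in the first table. With median-centring, CM in wild type gave -0.20 for CEACAM5 and -0.31 for CEACAM7, and CM in E545K -0.0117 for CEACAM6. Response differences under median-centring were 0.11 for CEACAM6 (palbociclib, H1047R), 0.0275 for CEACAM7 (CM, E545K), and 0.0703 for CEACAM6 and 0.21 for CEACAM7 (CM, H1047R). CEACAM6 was at 0.17 in the palbociclib response of H1047R with a pseudocount of 0.1, and CEACAM1 for erlotinib in E545K was at 0.0149 with quantile normalization and 0.0018 with median-centring.

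Leaving out 1 library at a time, members called ranged from 1 to 2 for H1047R against wild type in DMSO, 1 to 2 for CM in wild type, 0 to 2 for CM in E545K, 1 to 3 and 0 to 2 for the CM responses of E545K and H1047R, 0 to 1 for erlotinib in H1047R, 0 to 2 for the erlotinib response and 1 to 2 for H1047R against E545K under palbociclib in the first table. Genes called ranged from 2614 to 2715 for palbociclib in wild type, 2731 to 6773 for palbociclib in H1047R, 1267 to 5559 for the palbociclib response of H1047R, 683 to 1519 for CM in H1047R, 514 to 677 and 201 to 3790 for erlotinib in E545K and H1047R, 34 to 2076 for the erlotinib response and 769 to 5129 for H1047R against E545K in the first table. Of these, 6773, 5559, 5129, 3790 and 2076 were each reached without the first H1047R palbociclib library of the table concerned. An arm left with 1 library is assumed to vary like the other groups. Signs changed in uncalled members only: CEACAM7 for H1047R against wild type (-0.0868 to 0.0792), for CM in wild type (-0.0481 to 0.12), for erlotinib in H1047R (-0.37 to 0.0724) and for H1047R against E545K in the first table (-0.31 to 0.0262), CEACAM6 for the palbociclib response of H1047R (-0.18 to 0.00965) and for H1047R against E545K in the second table (-0.16 to 0.17), CEACAM5 for erlotinib in H1047R (-0.0892 to 0.19) and for H1047R against E545K in the first table (-0.0593 to 0.10), and CEACAM1 for erlotinib in E545K (-0.0858 to 0.0767).

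Correlations of deviations between same-numbered libraries ran from -0.56 to 0.55 in the first table, and 15 of 36 were over 0.1. Some groups thus deviated together and others in opposite ways, and the numbers gave no consistent pairing. The replicate block changed no call of a member. It lowered the genes called for the erlotinib response from 270 to 141. With 2 libraries per group and unknown depth, differences within the spread of a pair were not detectable, which bears most on CEACAM7.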
